A study of Homo sapiens with 24 samples.

Results

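The clustered protocadherins are a family of cell surface cadherins whose genes stand side by side on chromosome 5 in 3 clusters, named α, β and γ. They were taken here as every gene whose symbol starts with PCDHA, PCDHB or PCDHG, which gave 60 members of 60563 genes in the count table. The α cluster held 16 members between positions 140786136 and 141012347 (GRCh38), of which 15 were protein-coding. The β cluster held 20 members between 141046260 and 141249365, of which 16 were protein-coding, and the γ cluster held 24 members between 141330514 and 141512977, of which 22 were protein-coding.

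RNA was sequenced from NCI-H1299, a non-small cell lung cancer line that lacks p53, in cells given only the vector (the control) and in 5 clonal cell lines that carry a plasmid for an amino-terminally shortened p53 isoform. Each clonal line is 1 clone. Δ133p53α1, Δ133p53α2 and Δ133p53α8 overexpressed Δ133p53α, and Δ133p53β5 and Δ133p53β10 overexpressed Δ133p53β. There were 4 libraries for the control and for each line but Δ133p53β5, which had 3, and the sources used here do not give whether the vector control was cloned. One further library carried a sample label of Δ133p53β10 and a column header of Δ133p53β5. It was left without a line, entered no comparison, and its values are given apart. Every line shares the p53-deficient background, and nothing in the sources gives whether libraries of a line came from separate cultures, so p-values measure the spread between these libraries, which may be technical.

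Each protein-coding α and γ gene has its own promoter and its own large first exon, which is spliced to a few constant exons shared by its cluster, and each β gene is a single exon with its own promoter. In neurons, a cell switches on a small and partly random choice of these promoters, through demethylation of the promoter and looping by CTCF and cohesin to distant enhancers, and the choice is kept by the cell. The proteins bind the same isoform on the next cell, which neurons use to tell their own branches from those of other cells. The comparison of clones with the control therefore asks whether each clone carries its own selection of members. In bulk RNA, fewer cells that express a member and less RNA per cell cannot be told apart.

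The libraries held between 21531599 and 25381731 reads, and levels are given as CPM, the reads of a gene divided by the TMM-scaled library total and expressed per 1000000 reads. Of the 16 α members 15 end at 1 shared base and 21 of the 24 γ members at another. Levels between members are therefore compared per kilobase of own exon, which no other gene of the count table holds on the same strand. The effective number of members, given below, uses reads without this division. The 24 libraries fell into 2 sets of 12. In one, called the positive set, the departure of genes from their mean over the 24 libraries rose with exon length (Spearman correlations across genes of 0.182 to 0.3). In the other, the negative set, it fell (−0.266 to −0.113). Differences between lines were not removed before the sets were defined. The positive set held 3 of the 4 control libraries, 1 of Δ133p53α1, 3 of Δ133p53α2, 3 of Δ133p53α8, 1 of Δ133p53β5 and 1 of Δ133p53β10. Values are also given by set for some of the members that moved with the set. VIM, the intermediate filament of mesenchymal cells, was at 1750 to 5060 CPM over the 24 libraries and FN1, fibronectin, at 2.04 to 20.5 CPM. The epithelial keratins KRT8 and KRT18 were at 431 to 735 and 461 to 932 CPM in the control, and at 1060 to 4250 and 804 to 3280 CPM in the 19 clone libraries with a line, while the keratin KRT7 was at most 8.36 CPM and the adhesion molecule EPCAM, a defining epithelial marker, at most 0.194 CPM. The neural markers ELAVL4 and RBFOX3 reached at most 0 and 0.207 CPM, TUBB3, MAP2 and SYP reached 31.5, 7.17 and 6.32 CPM, and the leukocyte marker PTPRC and the endothelial markers CDH5 and PECAM1 reached at most 0, 0.172 and 0.702 CPM. MAP2 and FN1 were highest in control replicate 3. In the other control libraries they were at 0.216 to 1.55 and 8.27 to 8.65 CPM. The part of these markers in the results was not tested.

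The promoters of the 3 clusters carry short shared runs of letters, and they are shown here because β members that differed, PCDHB2, PCDHB5 and PCDHB14, and β members with few or no reads in any library, PCDHB4 and PCDHB8, hold the same one. In RefSeq windows of GRCh38.p14 from 250 bases before to 50 bases after each start, GGTGGCGCT was found in 13 of 14 β windows, in 0 of 13 α windows and in 0 of 20 γ windows, against 0.501% of 35097 windows of all genes, with both strands searched. CGCTGTT was found in 13 of 20 γ windows and TGTCGCT in 10 of 13 α windows, against 2.26% and 1.76% of all windows. All 3 runs overlap in the shorter CGCT, which 70% of all windows hold. These letters were picked after the windows had been read, so the shares are a description. The lines below give the plus strand around them, with the run in capitals. PCDHB1-AS1, PCDHB6 and PCDHB11 had no window. PCDHGA3 was the leading γ member, and PCDHGA10 and PCDHA11 each passed the thresholds given below against the control in 1 clone.
PCDHB2, chr5:141094525-141094593: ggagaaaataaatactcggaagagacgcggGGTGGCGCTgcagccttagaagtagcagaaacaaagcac
PCDHB5, chr5:141135160-141135228: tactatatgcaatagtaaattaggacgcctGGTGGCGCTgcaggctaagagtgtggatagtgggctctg
PCDHB14, chr5:141223244-141223312: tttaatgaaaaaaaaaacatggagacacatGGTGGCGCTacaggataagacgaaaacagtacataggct
PCDHB4, chr5:141121704-141121772: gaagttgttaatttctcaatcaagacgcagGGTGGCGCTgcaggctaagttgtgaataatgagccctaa
PCDHB8, chr5:141177758-141177826: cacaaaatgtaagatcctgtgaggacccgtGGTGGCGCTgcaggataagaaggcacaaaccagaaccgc
PCDHGA3, chr5:141343753-141343819: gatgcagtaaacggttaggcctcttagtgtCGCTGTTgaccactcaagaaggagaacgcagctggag
PCDHGA10, chr5:141412917-141412983: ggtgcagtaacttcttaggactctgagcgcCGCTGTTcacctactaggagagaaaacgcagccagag
PCDHA11, chr5:140868866-140868932: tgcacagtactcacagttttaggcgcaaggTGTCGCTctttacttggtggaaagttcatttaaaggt

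The family was weakly expressed. All 60 members together came to between 13.1 and 94.6 CPM in a library, and only 20 of them had enough reads to be tested, 3 in the α, 7 in the β and 10 in the γ cluster. The 40 members that were not tested took 7.44% of the family's reads, none of them exceeded 24 reads in a library, and 2 had no read in any library. A member that passed this filter through a line in which it is high had to differ, so the 20 tested members do not stand for all 60. The plot of levels by library shows the 20 tested members.

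**Figure D1:**
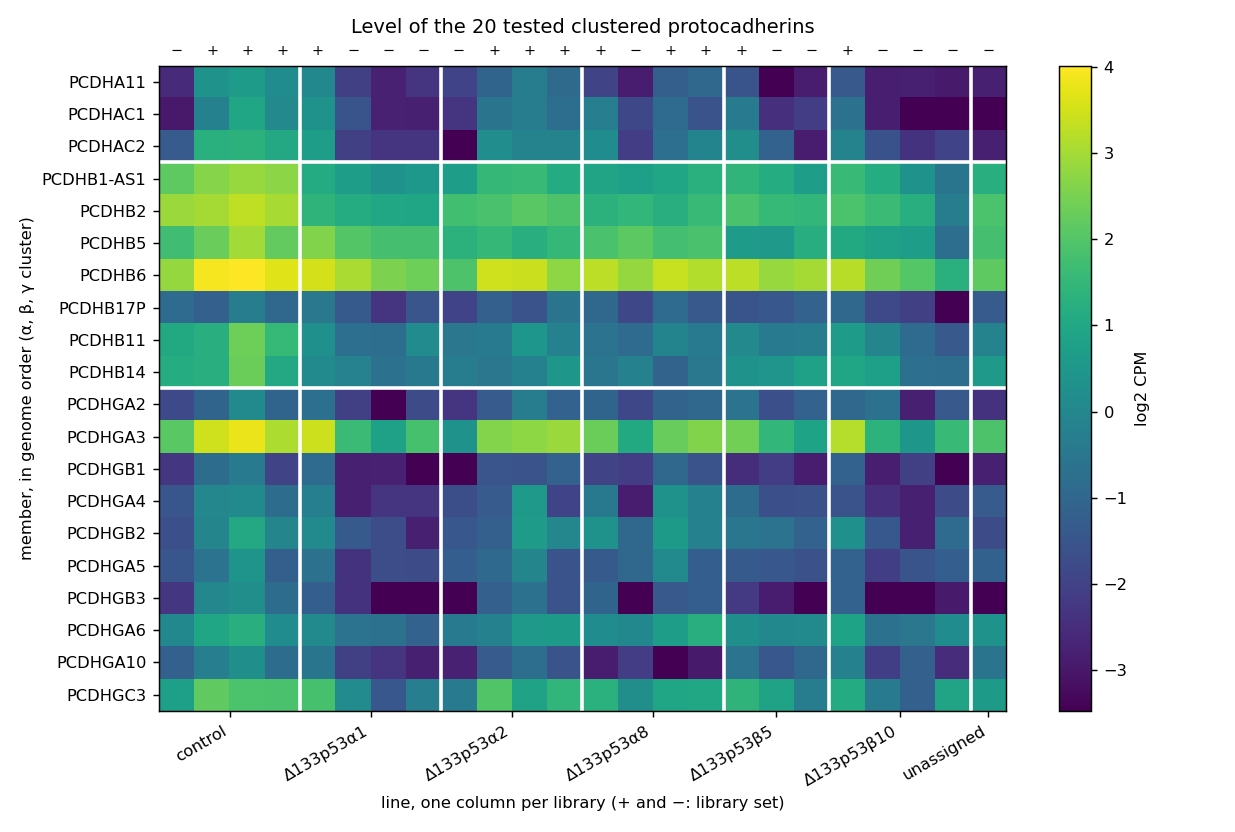
Level of the 20 tested members in each of the 24 libraries, as log2 CPM with a prior count of 2. Rows are members in genome order, split into the α, β and γ clusters, columns are libraries grouped by line, and the signs above them give the library set. The rows of PCDHB6 and PCDHGA3 are the brightest in their clusters, save that PCDHB2 is slightly brighter than PCDHB6 in control replicate 1, PCDHB1-AS1, PCDHB2, PCDHB11 and PCDHB14 are brighter in the 4 control libraries than in any other, and within a line the α members are brighter in libraries marked + than in libraries marked −.

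The same members led the β and γ clusters in the control and in every clone. Per kilobase of own exon, PCDHB6 was the highest β member and PCDHGA3 the highest γ member in all 24 libraries, at means of 2.56 and 1.93 CPM per kilobase. Behind PCDHB6 stood PCDHB5 at 0.932, PCDHB2 at 0.905, the antisense RNA PCDHB1-AS1 at 0.837, PCDHB14 at 0.295 and PCDHB11 at 0.274 CPM per kilobase. Behind PCDHGA3 stood PCDHGC3 at 0.592, PCDHGB2 at 0.253 and PCDHGA6 at 0.194 CPM per kilobase. The α cluster was the weakest, where PCDHAC2 had the highest mean at 0.216 CPM per kilobase. PCDHAC2 led the α cluster in 18 of the 24 libraries, PCDHA12 and PCDHA13 in 2 each, and PCDHA11 and PCDHAC1 in 1 each.

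PCDHB6 made up 33.7% ± 5.53 (SD, n = 4) of the β cluster's level per kilobase in the control, and between 41.9% ± 5.79 in Δ133p53β10 (n = 4) and 48.7% ± 4.99 in Δ133p53α8 (n = 4) in the clones. Single control libraries reached from 27.4% to 40.4%, which overlaps with every clone but Δ133p53α8, at 42.6% to 53.7%, and Δ133p53β5, at 45.8% to 50.3%. PCDHGA3 made up 52.5% ± 1.18 of the γ cluster in the control, and from 42.4% ± 5.46 (n = 3) in Δ133p53β5 to 58.6% ± 5.87 (n = 4) in Δ133p53α1. PCDHB5 took 23.4% ± 1.61 of the β cluster in Δ133p53α1, 19.4% ± 3.66 in Δ133p53α8 and 14.2% ± 4.3 in Δ133p53α2. It took 12.6% ± 1.23 in the control, 11.1% ± 2.5 in Δ133p53β10 and 9.38% ± 2.61 in Δ133p53β5. Single libraries of Δ133p53α2 ran from 9.66% to 19.7%, which overlaps with the control, at 11.8% to 14.5%. The larger shares were not higher levels, as PCDHB5 had means of 4.18 CPM in Δ133p53α1 and 3.69 CPM in Δ133p53α8, against 5.08 CPM in the control. No clone had replaced the leading member of either cluster by another. The β shares include PCDHB1-AS1, at 17% in the control and 9.55% to 13.6% in the clones, whose reads are not taken as independent of those of PCDHB2. These shares are a description, with no test.

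**Figure D2:**
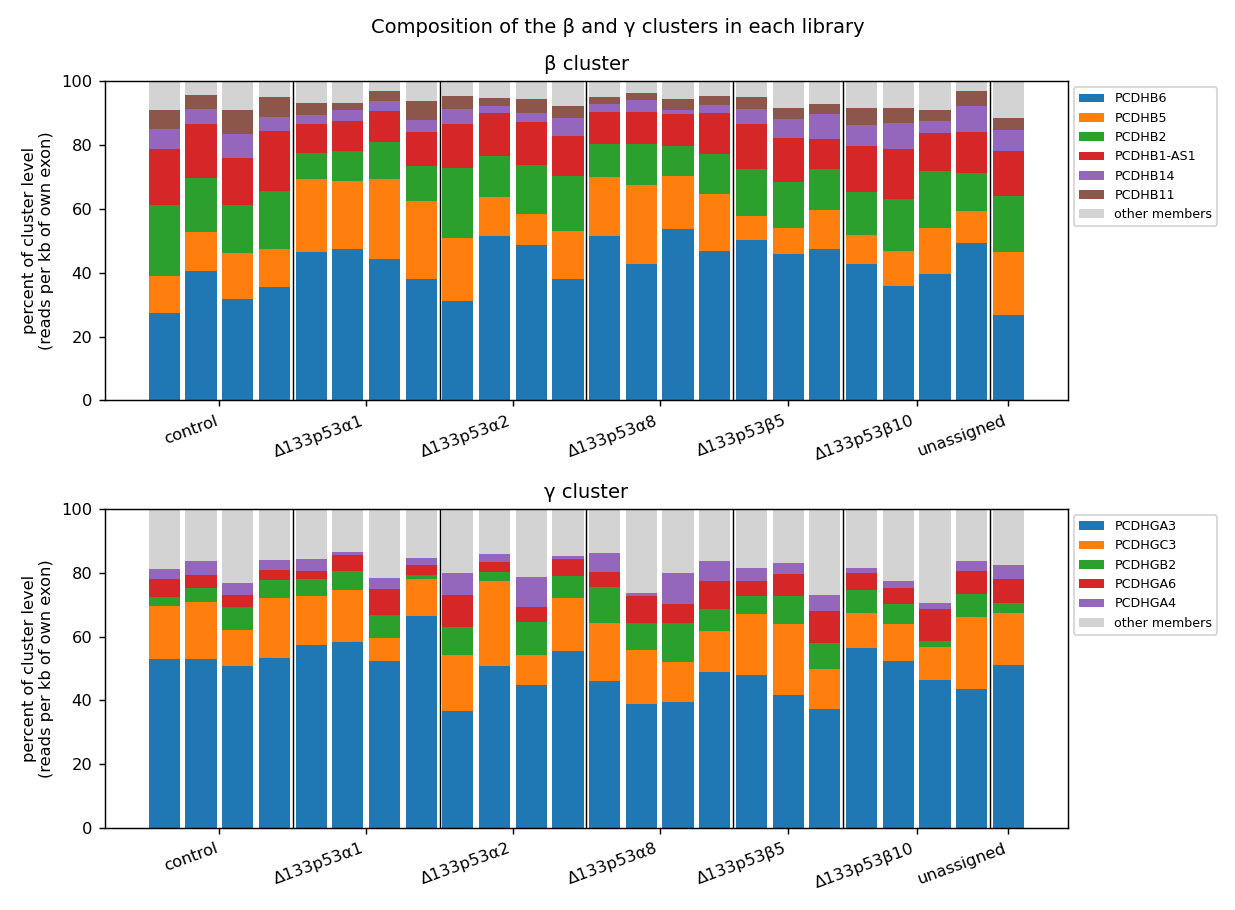
Make-up of the β cluster (top) and the γ cluster (bottom) in each of the 24 libraries, with bars grouped by line. Each bar divides 100% of the cluster's reads per kilobase of own exon among the named members, with all others in grey. PCDHB6 took 27.4% to 53.7% of the β cluster and PCDHGA3 36.8% to 66.5% of the γ cluster in the 23 libraries with a line.

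The number of members in use overlapped between the control and the clones in the α and γ clusters, and in the β cluster in every clone but Δ133p53α8. The effective number of members, the exponential of the Shannon entropy of the reads within a cluster, was 6.78 ± 0.86 in the β cluster of the control (SD, n = 4), against 4.94 ± 0.293 in Δ133p53α8, 5.4 ± 0.37 in Δ133p53α1, 5.63 ± 0.606 in Δ133p53α2, 5.73 ± 0.466 in Δ133p53β5 (n = 3) and 6.33 ± 0.817 in Δ133p53β10. In the γ cluster it was 6.88 ± 0.844 in the control and between 5.87 ± 0.947 in Δ133p53α1 and 8.15 ± 1.09 in Δ133p53β5. In the α cluster it was 6.28 ± 1.41 in the control and between 5.12 ± 2.06 in Δ133p53β10 and 6.51 ± 1.3 in Δ133p53α8, on 6 to 225 reads per library. The β cluster ranges of the control, 5.86 to 7.63, and of Δ133p53α8, 4.69 to 5.23, were apart, while that of Δ133p53β10, 5.19 to 7.13, overlapped with the control. The control also held more reads on the β cluster, 735 to 1448 per library against 122 to 609 in the clones. The library without a line had 348 reads on the β cluster and an effective number of 7.86. The β values count the antisense RNA PCDHB1-AS1 as a member. The part of read number in these values was not tested.

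A member was called against the control where edgeR's quasi-likelihood test gave an adjusted p below 0.05 and its log2 fold change was 1.5 or more up or down. In Δ133p53α1, 4 of the 20 tested members were called lower, where 1.54% of all 18295 tested genes were called lower. The other lines gave 5 members in Δ133p53α8 (1.55% of all genes), 2 in Δ133p53α2 (1.83%), 5 in Δ133p53β10 (2.97%) and 3 in Δ133p53β5 (2.96%). No member was called higher in any line, where 1.04% of all genes were called higher in Δ133p53α1, 0.978% for Δ133p53α2, 0.984% for Δ133p53α8, 1.31% for Δ133p53β5 and 1.76% for Δ133p53β10. At an unadjusted p below 0.05 in edgeR's test, 13 members were lower in Δ133p53β10 (13.7% of all genes), 8 in Δ133p53β5 (12.6%), 7 in Δ133p53α1 (12.8%), 6 in Δ133p53α8 (8.7%) and 5 in Δ133p53α2 (8.83%). At the same p, 0 members were higher in any line, where 13.8%, 8.75%, 12.8%, 6.52% and 7% of all genes were higher in the same order of lines. The median log2 fold change of the 20 tested members was −1.269 for Δ133p53α1, −0.855 for Δ133p53α2, −0.976 for Δ133p53α8, −1.296 for Δ133p53β5 and −1.38 for Δ133p53β10, against −0.082, 0.01, −0.016, −0.031 and −0.052 over all tested genes. The positive set held 3 of the 4 control libraries but 1 library each of Δ133p53α1, Δ133p53β5 and Δ133p53β10. Higher means in the positive set in all 6 lines were found for 3 of 3 α, 8 of 10 γ and 3 of 7 β members. The part of the library set in these medians was not tested. The 5 comparisons share the 4 control libraries, and PCDHB2 and PCDHB1-AS1 are counted as 2 members though not taken as independent. The counts changed with single libraries and with the libraries in the fit. Fits of only the line and the control, which tested 17 members in Δ133p53α2 and 14 in Δ133p53β10, called 0 members lower in each, where 1.14% and 1.68% of all genes were called lower, and the cause was not tested. Without control replicate 3, which had the family's highest summed level at 94.6 CPM, Δ133p53α1 gave 2 members (1.05% of all genes), Δ133p53α2 and Δ133p53β5 gave 0 each (1.39% and 1.86%), and Δ133p53α8 and Δ133p53β10 gave 4 each (1.03% and 1.85%). Without Δ133p53α1 replicate 1, the 1 library of that line in the positive set, 12 members were called lower in Δ133p53α1, where the share of all genes called lower rose as well, from 1.54% to 6.12%. Without Δ133p53β10 replicate 1, likewise alone in the positive set, 12 were called lower in Δ133p53β10, where the share of all genes went from 2.97% to 3.6%. Δ133p53β10 gave 3 without its replicate 4 (2.47% of all genes). Δ133p53α2 gave 1 without its replicate 2 or its replicate 3 (1.47% and 1.49%), and Δ133p53β5 gave 0 without its replicate 2 (1.98%), 1 without its replicate 3 (1.52%) and 5 without control replicate 1 (2.84%).

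**Figure D3:**
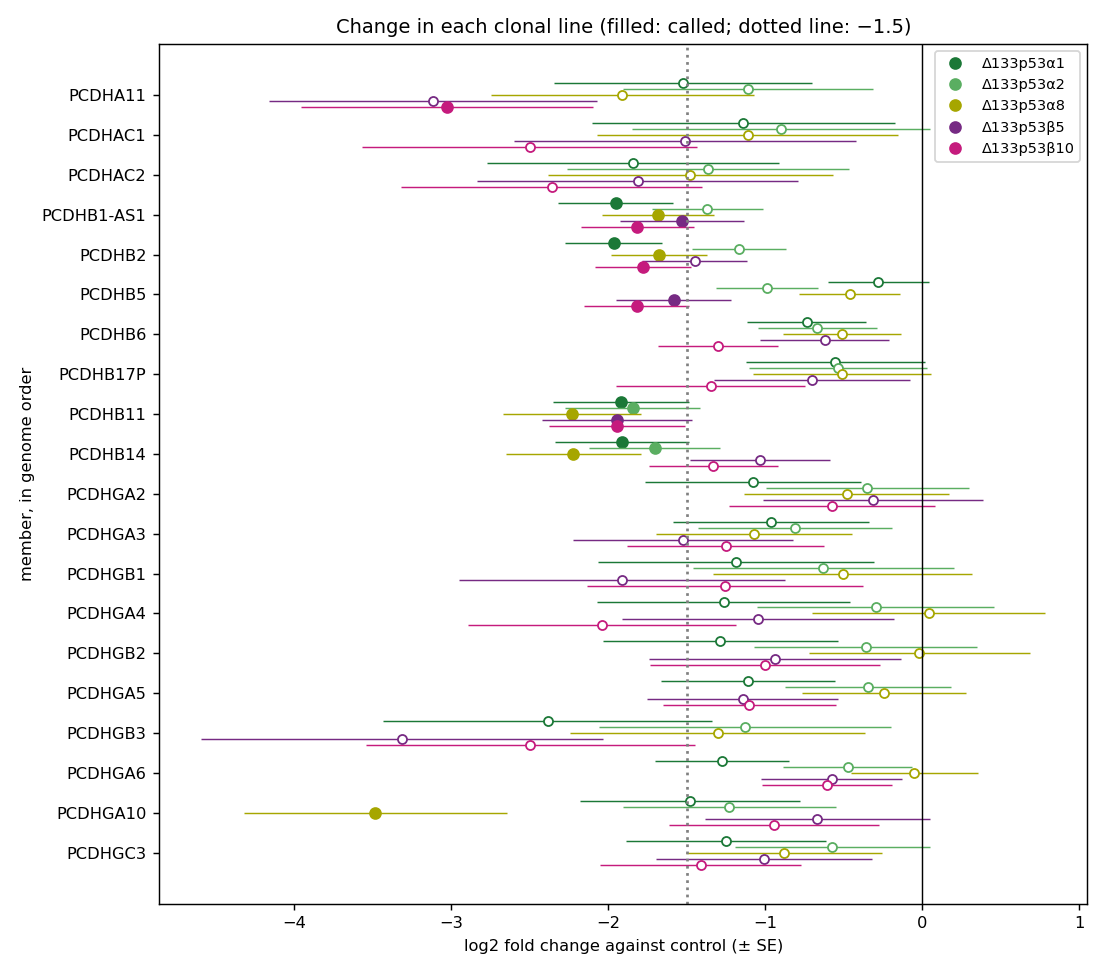
Log2 fold change of each tested member in the 5 clonal lines against the control, from one edgeR fit, with bars of 1 SE. Filled points were called, open points were not, and the dotted line marks −1.5. PCDHB11 is filled in all 5 lines, PCDHB1-AS1 in 4 and PCDHB2 and PCDHB14 in 3.

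In the β cluster, 4 readings set the control apart from every clone. In PCDHB1-AS1, PCDHB2, PCDHB11 and PCDHB14 each of the 4 control libraries lay above each of the 19 clone libraries, which was so for 1.54% of all tested genes. The reverse, all control libraries below all clone libraries, was so for 0 members and for 0.825% of all tested genes. PCDHB2, PCDHB11 and PCDHB14 encode β protocadherins, and PCDHB1-AS1 is an antisense RNA that covers part of PCDHB2.

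PCDHB2 was at 7.29, 8.01, 9.66 and 8.17 CPM in the 4 control libraries. In the Δ133p53α clones it was at 2.54, 2.13, 1.92 and 1.86 in Δ133p53α1, 3.28, 3.54, 4.21 and 3.71 in Δ133p53α2 and 2.46, 2.71, 2.29 and 2.9 in Δ133p53α8. In the Δ133p53β clones it was at 3.56, 2.82 and 2.7 in Δ133p53β5 and 3.62, 3.03, 2.29 and 0.707 in Δ133p53β10. The lowest control library was thus above the highest clone library, which belonged to Δ133p53α2. The log2 fold change was −1.97 ± 0.31 (SE, adjusted p = 0.000489) in Δ133p53α1, −1.68 ± 0.31 (adjusted p = 0.00163) in Δ133p53α8 and −1.78 ± 0.31 (adjusted p = 0.000621) in Δ133p53β10. It was −1.17 ± 0.30 in Δ133p53α2 (adjusted p = 0.0237) and −1.45 ± 0.33 in Δ133p53β5 (adjusted p = 0.00861), past the p threshold and under the fold threshold. In the negative set alone the control library was at 7.29 CPM and the clone libraries reached at most 3.28 CPM.

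PCDHB1-AS1 lies on the minus strand at 141046260 to 141096402, and 1898 of its 3126 exon bases lie under exons of the other strand, including those of PCDHB2. It was at 4.34, 6.18, 7.24 and 6.48 CPM in the control. The clones were at 2.11, 1.57, 1.21 and 1.33 in Δ133p53α1, 1.56, 2.79, 2.89 and 2.1 in Δ133p53α2 and 1.77, 1.59, 1.83 and 2.35 in Δ133p53α8, and at 2.62, 2.13 and 1.54 in Δ133p53β5 and 2.95, 2.16, 1.17 and 0.582 in Δ133p53β10. Its reads came to between 47.5% and 83.3% of those of PCDHB2 in a library, with a median of 72.7%, and the pair was lowest in the same library, Δ133p53β10 replicate 4. Its log2 fold change ran from −1.95 ± 0.36 in Δ133p53α1 to −1.37 ± 0.35 in Δ133p53α2, and it was called in every line but Δ133p53α2. The strand setting of the counting is not given in the sources used here. Of 745 genes with every exon base under an exon of the other strand, 455 held 10 or more reads, which does not settle the strand setting, and the readings of PCDHB2 and of its antisense RNA are not taken as independent of each other.

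PCDHB11, downstream of PCDHB2 at 141199610 to 141203779, was the only member called in all 5 lines. It was at 2.02, 2.22, 5.02 and 2.81 CPM in the control, where replicate 3 stood above the others. The clones were at 1.14, 0.507, 0.494 and 1.01 in Δ133p53α1, 0.612, 0.655, 1.28 and 0.784 in Δ133p53α2 and 0.56, 0.466, 0.849 and 0.673 in Δ133p53α8, and at 0.944, 0.694 and 0.699 in Δ133p53β5 and 1.5, 0.865, 0.458 and 0.291 in Δ133p53β10. The highest clone library, Δ133p53β10 replicate 1, was below the lowest control library. Its log2 fold changes were −2.23 ± 0.44 for Δ133p53α8, −1.92 ± 0.43 for Δ133p53α1, −1.84 ± 0.43 for Δ133p53α2, −1.94 ± 0.43 for Δ133p53β10 and −1.94 ± 0.48 for Δ133p53β5, with adjusted p between 0.00317 and 0.0135. Without control replicate 3 it was −1.53 in Δ133p53α1, −1.46 in Δ133p53α2 and −1.57 in Δ133p53β5, with adjusted p of 0.0562, 0.054 and 0.0558, and these 3 calls were lost. In edgeR's test the Δ133p53α1 call was also lost without its replicate 2 or 3 (adjusted p = 0.0553 and 0.0546). The Δ133p53β5 call was lost without its replicate 2 or 3 (adjusted p = 0.0716 and 0.0819). Fits of only the line and the control lost the calls in Δ133p53α2 and Δ133p53β10 (adjusted p = 0.0585 and 0.0816).

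PCDHB14 was at 2.13, 2.22, 4.94 and 1.99 CPM in the control. The clones were at 0.972, 0.811, 0.549 and 0.639 in Δ133p53α1, 0.724, 0.611, 0.784 and 1.32 in Δ133p53α2 and 0.603, 0.793, 0.382 and 0.631 in Δ133p53α8, and at 1.2, 1.25 and 1.68 in Δ133p53β5 and 1.87, 1.59, 0.509 and 0.499 in Δ133p53β10. The highest clone libraries, at 1.87 CPM in Δ133p53β10 and 1.68 CPM in Δ133p53β5, stayed below the lowest control library. It was called in the 3 Δ133p53α lines, at −1.91 ± 0.42, −1.70 ± 0.42 and −2.22 ± 0.43 (adjusted p = 0.00982, 0.0168 and 0.00276). In the Δ133p53β lines it was at −1.03 ± 0.45 and −1.33 ± 0.41 (adjusted p = 0.176 and 0.0427) and not called. The difference between the isoforms did not pass the test, with a log2 difference of 0.76 ± 0.28 between the Δ133p53β and the Δ133p53α lines (adjusted p = 0.144). Without control replicate 3 it was −1.47 in Δ133p53α1 and −1.27 in Δ133p53α2 (adjusted p = 0.0525 and 0.0816), and these calls were lost.

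**Figure D4:**
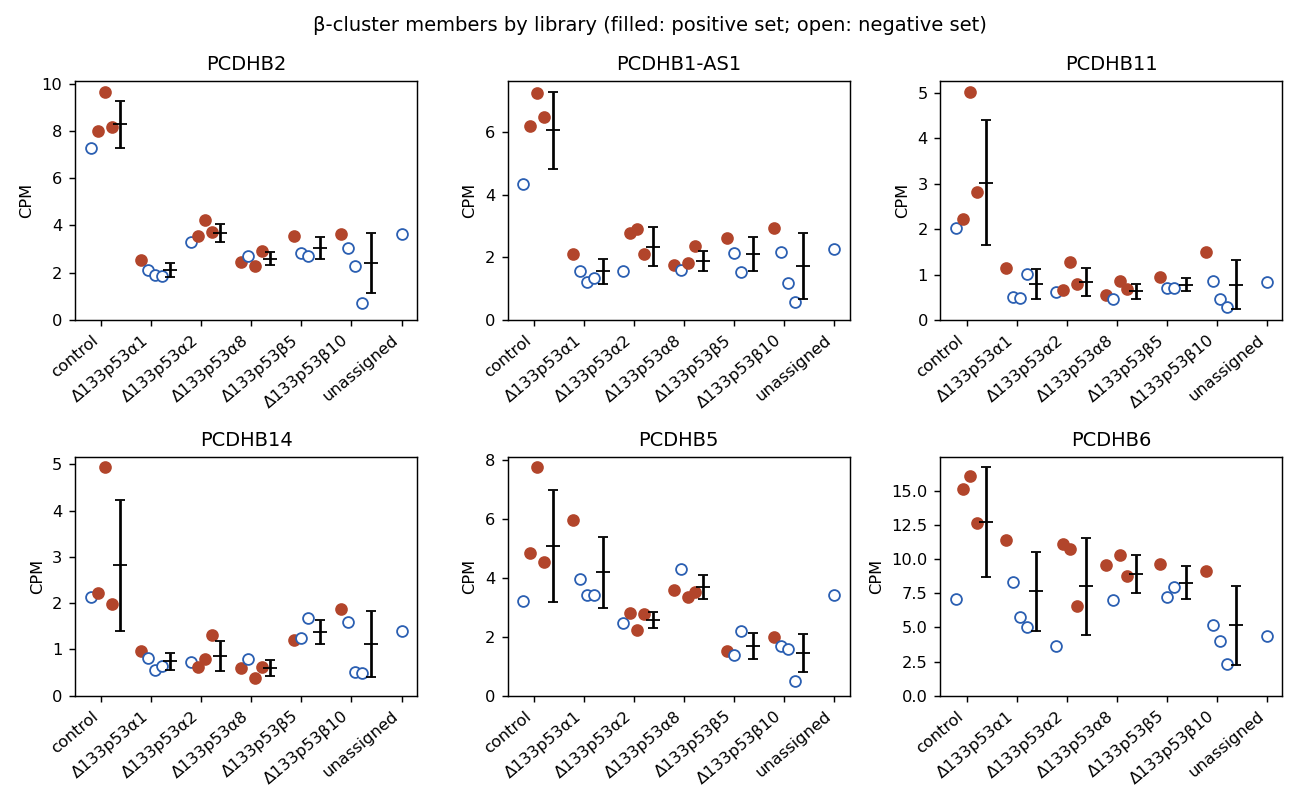
CPM of 6 β-cluster members in each library, by line, with the mean and SD of each line beside its points. Filled points are libraries of the positive set and open points those of the negative set. In PCDHB2, PCDHB1-AS1, PCDHB11 and PCDHB14 the control lies above every other library, PCDHB5 is lowest in Δ133p53β5 and Δ133p53β10, and PCDHB6 overlaps between the control and the clones.

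PCDHB5 was lower in both Δ133p53β clones than in the control. It was at 3.22, 4.83, 7.74 and 4.54 CPM in the control, at 5.96, 3.95, 3.41 and 3.41 in Δ133p53α1, 2.45, 2.79, 2.23 and 2.77 in Δ133p53α2 and 3.58, 4.29, 3.35 and 3.53 in Δ133p53α8, and at 1.5, 1.39 and 2.19 in Δ133p53β5 and 2, 1.68, 1.58 and 0.499 in Δ133p53β10. The 7 Δ133p53β libraries with a line lay below the lowest control library and below the lowest Δ133p53α library. The library without a line, which is of Δ133p53β by both its label and its header, was at 3.41 CPM, above the lowest control library and above the 4 libraries of Δ133p53α2, so this separation does not hold with it. Against the control its log2 fold change was −1.58 ± 0.37 in Δ133p53β5 (adjusted p = 0.00866) and −1.82 ± 0.33 in Δ133p53β10 (adjusted p = 0.00112), and it was called in both. In Δ133p53α1, Δ133p53α2 and Δ133p53α8 it was at −0.28 ± 0.32, −0.99 ± 0.32 and −0.46 ± 0.32, with adjusted p of 0.554, 0.0884 and 0.587. Without control replicate 3, PCDHB5 was at −1.30 in Δ133p53β5 (adjusted p = 0.0355), under the fold threshold.

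PCDHB6, the leading β member, was at 7.09, 15.1, 16.1 and 12.6 CPM in the control. The clones were at 11.4, 8.31, 5.77 and 5.01 in Δ133p53α1, 3.67, 11.1, 10.7 and 6.56 in Δ133p53α2 and 9.57, 7, 10.3 and 8.75 in Δ133p53α8, and at 9.61, 7.22 and 7.97 in Δ133p53β5 and 9.11, 5.19, 4.02 and 2.33 in Δ133p53β10. Control replicate 1, the 1 control library of the negative set, lay within the range of the clones, so the groups overlapped. Within the positive set they were apart, with the control at 12.6 to 16.1 CPM and the clones at 11.4 CPM or less. Within the negative set the control was at 7.09 CPM and the clones reached 8.31 CPM. The log2 fold change was −1.30 ± 0.38 in Δ133p53β10 (adjusted p = 0.0346), under the fold threshold, and between −0.74 ± 0.38 and −0.51 ± 0.38 in the other lines, with adjusted p of at least 0.216. The pseudogene PCDHB17P was at 0.465, 0.348, 0.728 and 0.432 CPM in the control. In the clones it was at 0.634, 0.304, 0.11 and 0.266 in Δ133p53α1, 0.167, 0.349, 0.248 and 0.578 in Δ133p53α2 and 0.431, 0.187, 0.467 and 0.294 in Δ133p53α8, and at 0.257, 0.278 and 0.373 in Δ133p53β5 and 0.416, 0.192, 0.153 and 0 in Δ133p53β10. These ranges overlapped, and no line passed the test for it.

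In the γ cluster a single call was made, PCDHGA10 in Δ133p53α8. It had 9, 17, 29 and 11 reads in the control libraries and 1, 3, 0 and 1 reads in those of Δ133p53α8, which are 0.349, 0.74, 1.11 and 0.475 and 0.0431, 0.14, 0 and 0.042 CPM. The fitted log2 fold change was −3.48 ± 0.84 (adjusted p = 0.0163), and at so few reads its size depends on the prior count. The other lines held 14, 3, 2 and 1 reads in Δ133p53α1, 1, 7, 12 and 6 in Δ133p53α2, 13, 6 and 9 in Δ133p53β5 and 19, 3, 7 and 2 in Δ133p53β10. The range of Δ133p53α8 overlapped with that of every other clone but Δ133p53β5, and its 4 libraries were below all control libraries. Leaving out 1 of 3 Δ133p53α8 libraries (replicates 1, 3 and 4) or control replicate 3 ended this call, with adjusted p between 0.0593 and 0.0675.

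PCDHGA3, the leading γ member, was at 4.23, 11, 13.8 and 8.43 CPM in the control. The clones were at 10.9, 3.04, 1.65 and 3.52 in Δ133p53α1, 1.17, 6.11, 6.61 and 7.35 in Δ133p53α2 and 4.96, 2.01, 4.8 and 6.01 in Δ133p53α8, and at 5.32, 2.69 and 1.73 in Δ133p53β5 and 8.95, 2.5, 1.32 and 2.87 in Δ133p53β10. Its highest libraries were in the positive set in every line. Within the positive set it was at 8.43 to 13.8 CPM in the control and at 4.8 to 10.9 CPM in the clones, and within the negative set at 4.23 CPM in the control and at 1.17 to 3.52 CPM in the clones. The log2 fold change ran from −1.52 ± 0.70 in Δ133p53β5 to −0.81 ± 0.62 in Δ133p53α2, and no line passed the test (adjusted p of at least 0.198).

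PCDHGC3, the one tested C-type γ member, was at 1.59, 4.48, 3.64 and 3.59 CPM in the control. In the clones it was at 3.47, 1.01, 0.275 and 0.746 in Δ133p53α1, 0.668, 3.89, 1.69 and 2.64 in Δ133p53α2 and 2.37, 1.07, 1.83 and 1.93 in Δ133p53α8, and at 2.53, 1.71 and 0.699 in Δ133p53β5 and 2.12, 0.672, 0.356 and 1.79 in Δ133p53β10. The lines overlapped, and its log2 fold changes between −1.41 ± 0.64 and −0.57 ± 0.62 did not pass the test. PCDHGB3 was at 0.116, 0.914, 1.07 and 0.475 CPM in the control, at 0.338, 0.101, 0 and 0 in Δ133p53α1, 0, 0.349, 0.537 and 0.248 in Δ133p53α2 and 0.388, 0, 0.297 and 0.336 in Δ133p53α8, and at 0.129, 0.0463 and 0 in Δ133p53β5 and 0.374, 0, 0 and 0.0416 in Δ133p53β10. It had no read in 7 of the 19 clone libraries, all of them in the negative set, and its log2 fold changes between −3.31 ± 1.28 and −1.13 ± 0.93 did not pass the test (adjusted p of at least 0.126).

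The other 6 tested γ members were low and overlapped between the control and the clones. PCDHGA6 was at 0.93, 1.83, 2.22 and 1.04 CPM in the control, at 0.972, 0.557, 0.549 and 0.373 in Δ133p53α1, 0.668, 0.786, 1.4 and 1.44 in Δ133p53α2 and 1.03, 0.933, 1.53 and 2.31 in Δ133p53α8, and at 1.12, 0.926 and 0.979 in Δ133p53β5 and 1.75, 0.528, 0.611 and 1.04 in Δ133p53β10. PCDHGB2 was at 0.233, 0.87, 1.95 and 0.865 CPM in the control, at 0.972, 0.304, 0.22 and 0.0533 in Δ133p53α1, 0.278, 0.349, 1.49 and 0.908 in Δ133p53α2 and 1.21, 0.42, 1.44 and 0.799 in Δ133p53α8, and at 0.601, 0.556 and 0.373 in Δ133p53β5 and 1.12, 0.288, 0.0509 and 0.457 in Δ133p53β10. PCDHGA4 was at 0.271, 0.914, 0.958 and 0.475 CPM in the control, at 0.761, 0.0507, 0.11 and 0.107 in Δ133p53α1, 0.223, 0.306, 1.4 and 0.165 in Δ133p53α2 and 0.646, 0.0466, 1.19 and 0.799 in Δ133p53α8, and at 0.472, 0.232 and 0.233 in Δ133p53β5 and 0.25, 0.0961, 0.0509 and 0.208 in Δ133p53β10. In these 3 members several libraries of Δ133p53α8 stood at or above the lower control libraries. PCDHGA5 was at 0.271, 0.566, 1.23 and 0.346 CPM in the control, at 0.549, 0.101, 0.22 and 0.213 in Δ133p53α1, 0.334, 0.437, 0.867 and 0.248 in Δ133p53α2 and 0.302, 0.42, 0.976 and 0.336 in Δ133p53α8, and at 0.3, 0.278 and 0.233 in Δ133p53β5 and 0.374, 0.144, 0.255 and 0.333 in Δ133p53β10. PCDHGA2 was at 0.194, 0.392, 0.958 and 0.389 CPM in the control, at 0.507, 0.152, 0 and 0.213 in Δ133p53α1, 0.111, 0.306, 0.702 and 0.371 in Δ133p53α2 and 0.388, 0.187, 0.382 and 0.42 in Δ133p53α8, and at 0.558, 0.232 and 0.373 in Δ133p53β5 and 0.416, 0.528, 0.0509 and 0.291 in Δ133p53β10. PCDHGB1 was at 0.116, 0.479, 0.651 and 0.173 CPM in the control, at 0.465, 0.0507, 0.0549 and 0 in Δ133p53α1, 0, 0.262, 0.248 and 0.371 in Δ133p53α2 and 0.172, 0.14, 0.424 and 0.252 in Δ133p53α8, and at 0.0858, 0.139 and 0.0466 in Δ133p53β5 and 0.374, 0.048, 0.153 and 0 in Δ133p53β10. None of the 6 passed the adjusted p threshold in any line.

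The 3 tested α members were higher on average in the positive than in the negative set in each of the 6 lines. PCDHAC2 was at 0.31, 2.35, 2.45 and 1.99 CPM in the control, at 1.52, 0.152, 0.11 and 0.107 in Δ133p53α1, 0, 1.05, 0.826 and 0.825 in Δ133p53α2 and 1.03, 0.14, 0.509 and 0.841 in Δ133p53α8, and at 1.07, 0.37 and 0.0466 in Δ133p53β5 and 0.832, 0.24, 0.102 and 0.166 in Δ133p53β10. PCDHAC1 was at 0.0388, 0.783, 1.8 and 0.951 CPM in the control, at 1.18, 0.253, 0.0549 and 0.0533 in Δ133p53α1, 0.111, 0.568, 0.702 and 0.495 in Δ133p53α2 and 0.733, 0.187, 0.467 and 0.252 in Δ133p53α8, and at 0.686, 0.0926 and 0.14 in Δ133p53β5 and 0.541, 0.048, 0 and 0 in Δ133p53β10. In the control both were lowest in replicate 1, the library of the negative set, and in Δ133p53α1, Δ133p53β5 and Δ133p53β10 both were highest in replicate 1, the library of the positive set. PCDHA11 was at 0.0775, 1.18, 1.49 and 1.04 CPM in the control, at 0.93, 0.152, 0.0549 and 0.107 in Δ133p53α1, 0.167, 0.393, 0.702 and 0.454 in Δ133p53α2 and 0.172, 0.0466, 0.34 and 0.42 in Δ133p53α8, and at 0.257, 0 and 0.0466 in Δ133p53β5 and 0.291, 0.048, 0.0509 and 0.0416 in Δ133p53β10. It was called lower in Δ133p53β10, at −3.03 ± 0.93 (adjusted p = 0.0417), on 7, 1, 1 and 1 reads against 2, 27, 39 and 24 in the control. In Δ133p53β5 it was at −3.12 ± 1.05 (adjusted p = 0.0727) and not called. Leaving out any one of 11 libraries of the control or of the clones ended the call in Δ133p53β10, with adjusted p between 0.0517 and 0.124. PCDHAC1 and PCDHAC2 did not pass the test in any line. Within the positive set, PCDHAC2 was at 1.99 to 2.45 CPM in the control and at 0.509 to 1.52 CPM in the clones. PCDHA11 was at 1.04 to 1.49 CPM and 0.172 to 0.93 CPM there, and PCDHAC1 overlapped, at 0.783 to 1.8 CPM and 0.252 to 1.18 CPM. Within the negative set, the control library lay within the range of the clones for all 3 members.

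**Figure D5:**
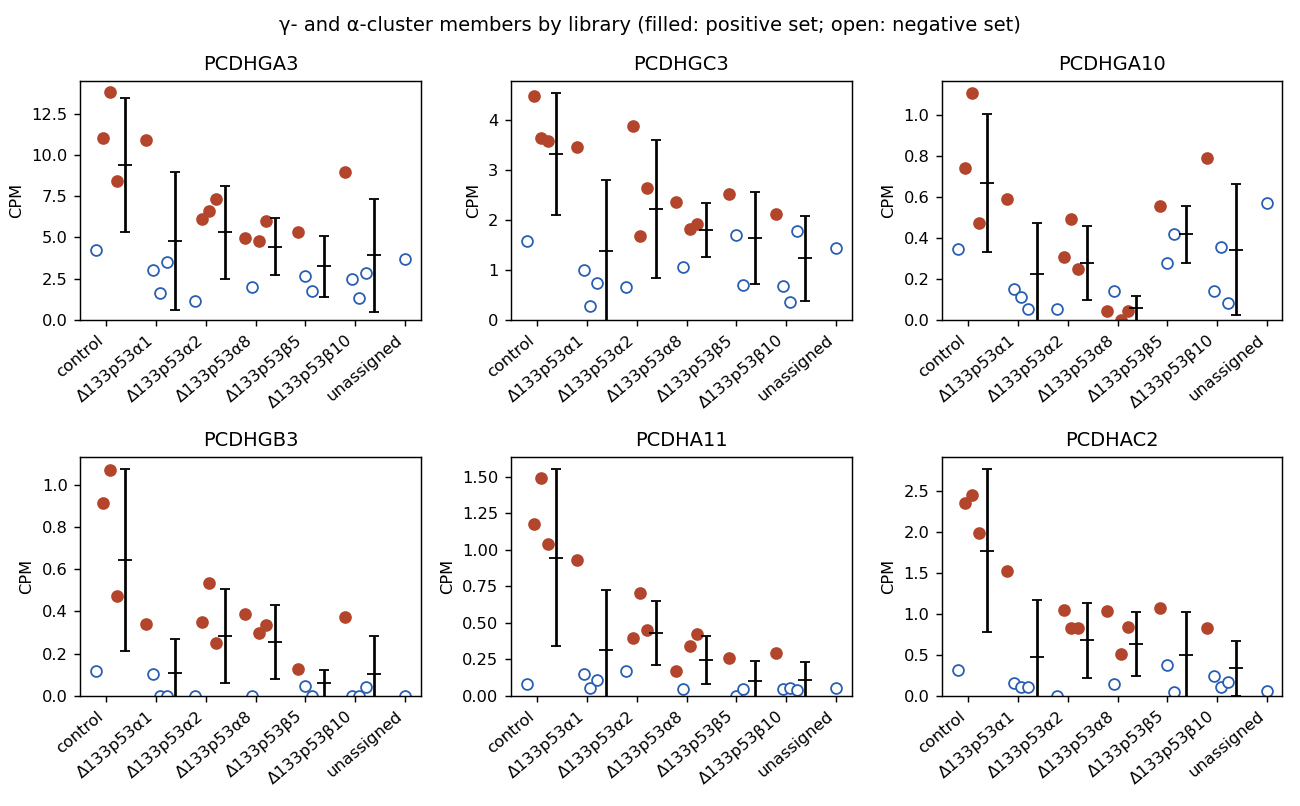
CPM of 4 γ-cluster and 2 α-cluster members in each library, by line, with the mean and SD of each line, where an SD bar that would pass below 0 is drawn to 0. Filled points are libraries of the positive set and open points those of the negative set. In PCDHGA3, PCDHAC2 and PCDHGB3 the filled points lie above the open points of the same line, and PCDHGA10 is close to 0 in Δ133p53α8.

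With the library set as a term beside the line, 8 of the 20 tested members were called higher in the positive set, against 4.71% of all tested genes. They were all 3 α members, PCDHA11, PCDHAC1 and PCDHAC2, at log2 differences of 2.86, 3.03 and 2.87, and the 5 γ members PCDHGA3, PCDHGB1, PCDHGA4, PCDHGB2 and PCDHGB3 at 1.74, 2.07, 1.88, 1.72 and 3.39. The 7 β members stayed under the fold threshold, and 4 of them passed the p threshold in the same direction. These were PCDHB6 at 0.88, PCDHB17P at 0.87, PCDHB11 at 0.79 and PCDHB1-AS1 at 0.67 (adjusted p = 8.51e-05, 0.028, 0.00538 and 0.00261). PCDHB2, PCDHB14 and PCDHB5 were at 0.33, 0.33 and 0.31 and did not pass (adjusted p = 0.107, 0.284 and 0.171). The sets were defined from all genes of these libraries, so these differences are a description of them. The fit with this term called 5 members lower in Δ133p53β10 (3.66% of all genes), 3 in Δ133p53β5 (4.59%), 6 in Δ133p53α8 (2.21%), 2 in Δ133p53α2 (2.47%) and 4 in Δ133p53α1 (1.79%). PCDHB11 was called in all 5 lines there too, between −2.23 in Δ133p53α8 and −1.55 in Δ133p53α1. In Δ133p53β5, PCDHB1-AS1 (−1.25) and PCDHB5 (−1.42) fell under the fold threshold, and PCDHA11 (−2.23) and PCDHGB3 (−2.37) were called. PCDHGB3 passed the filter through the control, at 3, 21, 28 and 11 reads, against 3, 1 and 0 reads in Δ133p53β5. Its call is counted above and is not read as a result.

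Between the clones PCDHB5 was called. Over the 10 pairs of clones there was 1 call of a member, where 0.7% of all gene and pair combinations were called, and the test among all 5 clones called 1 of the 20 tested members, where 2.4% of all genes were called, so nothing about the family is read from these counts. Both calls were PCDHB5. With the library set as a term there were 4 calls over the pairs (1.14% of all combinations) and 2 among the 5 clones (3.84% of all genes). The 4 were PCDHB5 between Δ133p53β10 and Δ133p53α1 (−1.54), PCDHA11 between Δ133p53β5 and Δ133p53α1 (−1.82), and PCDHGA10 in Δ133p53β5 and in Δ133p53β10 against Δ133p53α8 (3.37 and 3.05), and the 2 were PCDHB5 and PCDHGA10. In the fit without this term, PCDHB5 was lower in Δ133p53β10 than in Δ133p53α1, with a log2 difference of −1.54 ± 0.33 (adjusted p = 0.0147), and the difference from Δ133p53α8 was −1.36 ± 0.33 (adjusted p = 0.0438), under the fold threshold. Its fitted levels spanned 1.54 on the log2 scale over the 5 clones. Without Δ133p53β10 replicate 4, the call between the pair and the call among the 5 clones were both lost, and the call among the 5 clones was lost as well without Δ133p53α1 replicate 1 or Δ133p53β5 replicate 2. PCDHGA10 spanned 2.82 in that fit without passing the test.

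Between the isoforms edgeR's test called 0 members, where 1.39% of all genes were called, and DESeq2 and limma voom also called 0. At an unadjusted p below 0.05, 2 members (PCDHA11 and PCDHB5) were lower and 2 (PCDHB14 and PCDHGA10) were higher in the Δ133p53β than in the Δ133p53α lines, where 8.93% and 7.59% of all genes were. PCDHB5 was lower in the Δ133p53β lines than in the Δ133p53α lines by a log2 difference of −1.12 ± 0.23 (adjusted p = 0.00504), under the fold threshold. With only 3 clones of one isoform and 2 of the other, isoform and clone cannot be told apart. With the library set as a term, PCDHGA10 was called higher in the Δ133p53β than in the Δ133p53α lines, at 1.66 (1.79% of all genes called), on the few reads given above.

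The 40 members that were not tested held few reads in every line, and their counts are a description. PCDHB10 had 52 reads over the 4 control libraries, 7 to 24 in each, and fewer than 15 over the libraries of each clone. PCDHGA1 had 40 reads over the control libraries, PCDHB12 and PCDHA12 had 36 each, and PCDHB15 and PCDHA4 had 31 each. The highest sums over a clone's libraries were 23 reads for PCDHB3 in Δ133p53α2, against 27 in the control, and 20 for PCDHA4 in Δ133p53α1. After these came 18 reads each for PCDHA12 in Δ133p53α2, PCDHB9 in Δ133p53β5, PCDHGA7 in Δ133p53α8 and PCDHGA1 in Δ133p53β10, against 36, 28, 22 and 40 in the control. The count of members with any read was 15 to 17 of 20 in the β cluster of a control library and 9 to 17 in that of a clone library. A count of 0 allows up to 3 reads, and at this depth a silent member and one at a few reads could not be told apart.

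The genes that are known to open, close or fold this locus were measured alongside. The 26 regulators include CTCF and the cohesin subunits, which form the loops, and the DNA methyltransferases and TET enzymes, which set promoter methylation. They also include SMCHD1 and SETDB1, which keep the clusters silent. All 26 were tested and 0 were called in any line. Of all genes 1.54% to 2.97% were called lower and 0.978% to 1.76% higher in a line, so this count lay near the background. The medians were −0.5 for Δ133p53β10, −0.419 for Δ133p53α1, −0.274 for Δ133p53β5, −0.04 for Δ133p53α2 and 0.049 for Δ133p53α8. The members with the largest values were the cohesin subunit RAD21 at −1.08 ± 0.42 in Δ133p53α1 (adjusted p = 0.125) and the cohesin-associated PDS5A at −0.99 ± 0.45 in the same line (adjusted p = 0.18). PDS5A was at 231 CPM in the positive-set library of Δ133p53α1 and at 62.1 to 86.6 CPM in its negative-set libraries. The control was at 230 to 262 CPM in the positive set and at 149 CPM in the negative set. The part of the library set in the medians and values of the regulators was not tested. At an unadjusted p below 0.05 in edgeR's test, 4 regulators were lower in Δ133p53α1 and 4 in Δ133p53β10, 2 in Δ133p53β5, 1 in Δ133p53α8 and 0 in Δ133p53α2, and 2 were higher in Δ133p53α1 and 0 in the other lines. Of 26 regulators, 4 are 15.4%, where 12.8% of all genes were lower in Δ133p53α1 and 13.7% in Δ133p53β10, so these counts lay near the background. For RAD21 and PDS5A the adjusted p missed the threshold, which does not show that their levels were equal.

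Of 15 genes for proteins that bind or process protocadherins, all 15 were tested, and 1 was called lower in each Δ133p53α line and 2 in each Δ133p53β line. Of all genes, 1.54% to 1.83% were called lower in the Δ133p53α lines and 2.96% to 2.97% in the Δ133p53β lines. ROR2, a Wnt receptor, was called in all 5, at 4.26 to 6.88 CPM in the control and 0.125 to 1.68 CPM in the 19 clone libraries, with log2 fold changes between −3.27 ± 0.52 in Δ133p53β5 and −2.18 ± 0.44 in Δ133p53α1. PTK2B, a kinase of focal adhesion signalling that clustered protocadherins can inhibit, was called in Δ133p53β5 at −2.05 ± 0.50 and in Δ133p53β10 at −1.90 ± 0.44 (adjusted p = 0.0122 and 0.00828). The median of the list lay between −0.547 in Δ133p53α1 and −0.215 in Δ133p53β5, and the part of the library set in it was not tested.

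In a line, 1.54% to 2.97% of all genes were called lower and 0.978% to 1.76% higher. Of 18 protocadherins and large cadherins outside the clusters, 9 were tested and 0 were called in any line. Their medians lay between −1.124 in Δ133p53β10 and −0.525 in Δ133p53α8, and at an unadjusted p below 0.05 in edgeR's test between 1 and 3 of the 9 were lower in a line and 0 were higher, where 8.7% to 13.7% of all genes were lower. Of 21 genes that flank or lie between the 3 clusters on chromosome 5, 18 were tested and 0 were called, against the same shares of all genes. The medians of these genes lay between −0.034 in Δ133p53α8 and 0.194 in Δ133p53α1. At an unadjusted p below 0.05 in edgeR's test, 5 of these 18 were higher and 1 was lower in Δ133p53β10, where 13.8% and 13.7% of all genes were. In Δ133p53α1, 3 were higher and 3 lower, where 12.8% of all genes were higher and 12.8% lower. Each other line had between 0 and 2 higher and between 0 and 2 lower. There 6.52% to 8.75% of all genes were higher and 8.7% to 12.6% lower. DELE1, a mitochondrial stress gene beyond the γ cluster, was at −1.43 ± 0.17 in Δ133p53α1 (adjusted p = 2.2e-05), under the fold threshold. The median of these flanking genes lay within 0.2 of 0 in every line, which does not show that each gene was unchanged. Whether the library set had a part in the medians of these lists was not tested.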

How the data were processed

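RNA from 24 libraries of H1299 control cells and 5 clones was sequenced as strand-specific poly(A) libraries. The authors deposited raw read counts per gene, made with Cutadapt trimming, HISAT2 alignment to GRCh38 and featureCounts on exons of an Ensembl annotation. Strand and multimapping settings are not given in the sources used here, and 1 row without a name was left out. Of 60563 genes, 35020 had a count and 18295 passed filterByExpr by group, with at least 99.88% of each library's reads. Changes were tested in R 4.3.3 with edgeR 4.0.16 (TMM, quasi-likelihood F-test, 1 fit of 23 libraries in 6 groups, 17 residual degrees of freedom), with p adjusted by the Benjamini-Hochberg method across the tested genes. DESeq2 1.42.0, limma 3.58.1 (voom), RLE factors, other filters and a lower fold threshold, pairwise fits, the library set, the replicate block and leaving out each library were tried. The test was first run on simulated data. The 33 pairs of libraries of a line all differed beyond sampling noise (chi-square over degrees of freedom of at least 15.8). Reads carry no molecular identifiers, so floors cover counting error only. Values in every library are given for the 20 members with the largest range of line means, which are all the tested ones, and other lists by counts with at most 4 genes named. The members and lists were chosen with earlier results of these data known.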

Additional observations from a re-analysis of the deposited data

Results flagged for a closer look

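In groups of 4 libraries, 100 combinations of member and line were searched for a library far from the others of its line, and 9 were found, where chance gives about 1 in 20. In the α cluster, PCDHA11 was at 0.0775 CPM in control replicate 1, against 1.04 to 1.49 CPM in the other control libraries, and at 0.291 CPM in Δ133p53β10 replicate 1, against 0.0416 to 0.0509 CPM. PCDHAC2 was at 0.31 CPM in control replicate 1, against 1.99 to 2.45 CPM, at 1.52 CPM in Δ133p53α1 replicate 1, against 0.107 to 0.152 CPM, and at 0 CPM in Δ133p53α2 replicate 1, against 0.825 to 1.05 CPM. In the γ cluster, PCDHGA3 was at 1.17 CPM in Δ133p53α2 replicate 1, against 6.11 to 7.35 CPM, and in Δ133p53α8 replicate 2 PCDHGA2 was at 0.187 CPM, against 0.382 to 0.42 CPM, and PCDHGB3 at 0 CPM, against 0.297 to 0.388 CPM. In these 8 combinations the library was the only one of its line in its library set. In the β cluster, PCDHB14 was at 4.94 CPM in control replicate 3, against 1.99 to 2.22 CPM in the other control libraries.

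PCDHB5 passed the adjusted p threshold in 3 tests of a difference between clonal lines, which measure the spread between libraries. Its log2 difference was −1.12 between the Δ133p53β and Δ133p53α lines, −1.54 between Δ133p53β10 and Δ133p53α1 and −1.36 between Δ133p53β10 and Δ133p53α8, each past the adjusted p threshold of edgeR's test of the difference. Only the difference between Δ133p53β10 and Δ133p53α1 passed the fold threshold as well. Isoform and clone cannot be told apart here, and the library without a line was at 3.41 CPM, above every Δ133p53α2 library.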

How the results depend on the processing

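With a fold threshold of 1.5-fold, 4 members were called in Δ133p53α2, 1 between the isoforms and 2 over the pairs of clones, and with limma voom 2 over the pairs. With the library set as a term, 1 was called between the isoforms, 2 among the 5 clones and 4 over the pairs, and PCDHAC1 in Δ133p53α1, uncalled, moved from −1.14 to 0.0308. In fits of only the groups compared, 0 were called in Δ133p53α2, 0 in Δ133p53β10 and 0 over the pairs. The cause was not tested. Leaving out each of the 23 libraries gave 3 to 12 calls for Δ133p53β10, 0 to 5 for Δ133p53β5, 4 to 6 for Δ133p53α8, 0 to 3 for Δ133p53α2, 2 to 12 for Δ133p53α1, 0 to 1 among the 5 clones, 0 to 2 over the pairs and 0 to 0 between the isoforms, and put PCDHB5 in Δ133p53α1, uncalled, between −0.454 and 0.0247. Of 19 called fold changes, 45 values under an alternative were no longer called, 34 of them from leaving out a library and 9 without control replicate 3, and none turned direction. With the replicate number as a block, 4 members were called in Δ133p53β10, 4 in Δ133p53β5, 5 in Δ133p53α8, 2 in Δ133p53α2 and 4 in Δ133p53α1, 1 over the pairs, 1 among the clones and 0 between the isoforms. The correlation of same-numbered control and clone libraries ran from −0.783 to 0.639, over 0.1 in 6 of 19. Pairs within 1 library set ran from 0.026 to 0.639 and pairs of opposite sets from −0.783 to 0.199. These values move with the set, so whether same-numbered libraries share more than a number was not tested. Counting only members with 10 or more reads put the effective number at 4.18 to 5.83 in the β, 2.5 to 4.37 in the γ and 1.95 to 3.52 in the α cluster. Per kilobase of own exon it was 4.72 to 6.61 in the β, 5.03 to 7.28 in the γ and 5.08 to 6.05 in the α cluster. That moved 2 of the 6 γ values by at least their SD, and 0 in the other clusters. Depth limits the α and most γ members, which held few reads in a library.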

Other observations

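The library without a line stood in the negative set and held 26.9 CPM over the 60 members. PCDHB6 was at 4.39 CPM, PCDHGA3 at 3.72, PCDHB2 at 3.62, PCDHB5 at 3.41, PCDHB1-AS1 at 2.27, PCDHGC3 at 1.45, PCDHB14 at 1.4 and PCDHB11 at 0.827 CPM. PCDHA11 and PCDHAC2 had 1 read each and PCDHAC1 and PCDHGB3 none, of which a count of 0 allows up to 3. PCDHB6 and PCDHGA3 led their clusters per kilobase there too, and the 4 β members that were highest in the control were below every control library. Its PCDHB5 was above control replicate 1 and above every Δ133p53α2 library, unlike that of the 7 Δ133p53β libraries with a line.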
